A study of Mus musculus with 9 samples.

Results

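The genes described here belong to families of organic ion carriers and ATP-driven pumps, measured in mouse kidney on whole-transcript arrays after bile duct ligation with and without norursodeoxycholic acid (norUDCA). They are the genes of the Slc22a, Slc47a, Slco, Abca, Abcb, Abcc and Abcg families that have a row of their own on the array. Slc22a12, Abcg2, Abcc2, Abcc3, Abcc4, Abcb1a, Abcb1b, Slco1a1 and Slco4c1 were left out by the rule. This gave 73 members of the 22180 genes tested: 23 Slc22a, 2 Slc47a, 13 Slco, 16 Abca, 7 Abcb, 7 Abcc and 5 Abcg genes. Of the 73, 71 are protein-coding in the reference annotation, while Slco6b1 is a long non-coding RNA and Slc22a13b a transcribed pseudogene. The rule goes by gene name and uses no difference between groups, though the members were chosen with earlier results of these data known.

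Kidney RNA came from 3 groups of 3 samples. The norUDCA-fed CBDL group received norUDCA, a synthetic relative of ursodeoxycholic acid whose side chain is shorter, over 5 days before the common bile duct was ligated for 3 weeks. The CBDL group had the same 3 weeks of ligation, which blocks the outflow of bile, and the sham group had a sham operation 3 weeks before. Whether feeding went on after the operation, and the strain, sex and age of the mice, are not given in the labels, and no sham group fed norUDCA was among the samples. It is also not stated whether a group's samples came from separate animals, so a p-value covers the spread among the samples at hand, which may be technical. Arrays carry the number in their label. Values on every array are listed in the order norUDCA_CBDL_172, norUDCA_CBDL_175 and norUDCA_CBDL_179 for norUDCA-fed CBDL, CBDL_164, CBDL_165 and CBDL_170 for CBDL, and sham_158, sham_159 and sham_160 for sham. All levels are log2 signals, on which a difference of 1 is a 2-fold change.

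Array medians lay between 5.70 and 5.79. On the second principal component, which held 13% of the variance, 2 arrays lay far from the rest (CBDL_165 at -22.9 and sham_159 at -34.5), while the others spanned 3.4 to 12. Signals below 5.2, a level set so that the dimmest genes on the array lie under it, may not stand above background, and 22 members had all 3 group means there. Members count as called, and as having risen or fallen, where limma gave a p under 0.05 after Benjamini-Hochberg adjustment over all 22180 genes.

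The proximal tubule clears drugs, toxins and metabolic end products from blood in a relay. Carriers of the SLC22 family in the basolateral membrane take up organic anions in exchange for dicarboxylates, or organic cations driven by the membrane voltage, and apical carriers and pumps pass them into the urine. SLCO proteins (OATPs) carry larger amphipathic anions such as bile acids, steroid conjugates, thyroid hormones and prostaglandins. ABC proteins use ATP to export conjugates, lipids or haem compounds, and some work inside mitochondria or lysosomes.

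Among the anion carriers, 8 genes sit side by side with no other protein-coding gene between them in the reference annotation (GRCm38.p6): Slc22a19, Slc22a26, Slc22a27, Slc22a28, Slc22a29, Slc22a30, Slc22a8 and Slc22a6. Of these 8 neighbours, 7 fell in CBDL against sham, where 11.5% of all genes fell, and 1 of the 7, Slc22a29, had every group mean in the dim range (below 5.2). They include Slc22a6 and Slc22a8, the main basolateral anion carriers.

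**Figure D1:**
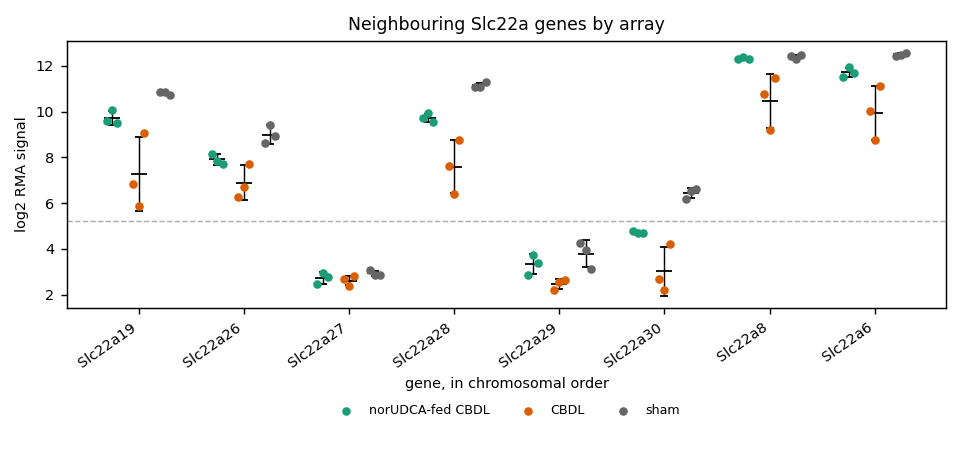
Log2 signal of the 8 neighbouring Slc22a genes in chromosomal order, with 3 arrays per group as points and the group mean with its SD as bars; the dashed line marks 5.2. CBDL arrays lie below all others for each gene but Slc22a27, where the groups lie close together, and Slc22a8 on norUDCA-fed CBDL arrays (12.29 to 12.37) lies within the sham range.

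The comparison of CBDL with sham asks what blocked bile flow does to these transcripts. After 3 weeks of ligation, 24 members fell and 10 rose, and 39 were not called. The decreases were in 16 Slc22a genes, Slc47a1, 2 Slco genes and 5 ABC genes, with falls of up to 21.1-fold. The rises included the cholesterol exporters Abca1 and Abcg1, the conjugate exporter Abcc1 and the prostaglandin carrier Slco2a1. Calls covered 46.6% of members, against 21.8% of all genes, with 32.9% against 11.5% for decreases and 13.7% against 10.3% for increases. The median difference was -0.28 over the members and -0.06 over all genes. For 40 members (54.8%, against 35.6% of all genes) every CBDL array lay on the same side of every sham array. Calls with a change of at least 2-fold numbered 4 higher and 16 lower (27.4%, against 6.11% of all genes). Without CBDL_165 and sham_159 together, 22 members fell and 8 rose. Of the 34 calls, 26 were kept under every alternative in which the gene was tested. With genes of a mean below 5.2 left out, 31 of the 34 were tested.

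Of 23 Slc22a members, 16 fell (69.6%, against 11.5% of all genes) and 1 rose (4.35%, against 10.3%). Slc22a6 encodes OAT1, the classical para-aminohippurate carrier. It stood at 11.51, 11.94 and 11.69 in norUDCA-fed CBDL, at 10.03, 8.74 and 11.10 in CBDL and at 12.45, 12.49 and 12.57 in sham. All CBDL arrays lay below all others, and they were far apart from each other. Slc22a6 fell by 2.55 in CBDL against sham (SE 0.45, adjusted p = 0.00282), or 5.84-fold. Slc22a8 encodes OAT3, which shares many drug and conjugate substrates with OAT1. It stood at 12.29, 12.37 and 12.31 in norUDCA-fed CBDL, at 10.76, 9.18 and 11.48 in CBDL and at 12.45, 12.28 and 12.46 in sham. Here the norUDCA-fed and sham arrays overlapped, and Slc22a8 fell by 1.92 in CBDL (SE 0.44, adjusted p = 0.0116). Its call ended with variances that are not moderated (adjusted p = 0.0672).

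Slc22a7, which encodes OAT2, stood at 7.29, 8.50 and 7.53 in norUDCA-fed CBDL, at 6.03, 4.82 and 6.58 in CBDL and at 9.90, 10.64 and 10.09 in sham. The 3 groups did not overlap. Slc22a7 fell by 4.40 in CBDL (SE 0.44, adjusted p = 0.000123), 21.1-fold and the largest fall among the members. Slc22a22 encodes the mouse prostaglandin-specific carrier OAT-PG. It stood at 8.70, 9.32 and 8.88 in norUDCA-fed CBDL, at 5.93, 4.62 and 7.91 in CBDL and at 10.25, 10.41 and 10.53 in sham. Slc22a22 fell by 4.24 in CBDL (SE 0.63, adjusted p = 0.00105), with a CBDL SD of 1.65 against 0.14 in sham. For both genes CBDL_165 lay under 5.2, so the sizes of these falls are uncertain.

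The other anion carriers of the neighbouring set are rodent members of the OAT group. Slc22a19 (OAT5) stood at 9.61, 10.07 and 9.49 in norUDCA-fed CBDL, at 6.85, 5.89 and 9.08 in CBDL and at 10.86, 10.88 and 10.74 in sham. Slc22a28 stood at 9.70, 9.93 and 9.56 in norUDCA-fed CBDL, at 7.62, 6.41 and 8.75 in CBDL and at 11.07, 11.07 and 11.29 in sham. Both had groups that did not overlap, and both fell by 3.55 (adjusted p = 0.0026 for Slc22a19 and 0.000436 for Slc22a28). Slc22a30 stood at 4.76, 4.71 and 4.71 in norUDCA-fed CBDL, at 2.66, 2.18 and 4.20 in CBDL and at 6.18, 6.53 and 6.6 in sham. It fell by 3.42 (adjusted p = 0.000319), with every array of both ligated groups under 5.2. Slc22a26 stood at 8.16, 7.85 and 7.72 in norUDCA-fed CBDL, at 6.26, 6.72 and 7.72 in CBDL and at 8.61, 9.42 and 8.94 in sham, and fell by 2.09 (adjusted p = 0.00161) in CBDL. Slc22a29 stood at 2.85, 3.73 and 3.40 in norUDCA-fed CBDL, at 2.22, 2.55 and 2.62 in CBDL and at 4.26, 3.95 and 3.12 in sham, and fell by 1.32 in CBDL (adjusted p = 0.01). It was the only called member with all 3 group means in the dim range, and its call ended with variances that are not moderated (adjusted p = 0.0583) and without CBDL_165 and sham_159 together (adjusted p = 0.0789). Slc22a27 lay between 2.38 and 3.07 on all 9 arrays and was not called. These genes are close relatives, and whether a probe set also reads a neighbour's transcript was not tested.

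Cation and zwitterion carriers fell as well. Slc22a2 encodes OCT2, the basolateral entry step for organic cations. It stood at 11.30, 12.14 and 11.64 in norUDCA-fed CBDL, at 9.93, 9.45 and 11.33 in CBDL and at 12.31, 12.50 and 12.47 in sham, and fell by 2.19 in CBDL (SE 0.40, adjusted p = 0.00349). Slc47a1 encodes MATE1, the apical proton exchanger that releases those cations into urine. It stood at 11.28, 11.17 and 11.26 in norUDCA-fed CBDL, at 10.50, 10.39 and 10.81 in CBDL and at 11.57, 11.71 and 11.70 in sham. The 3 groups were tight and separate, and Slc47a1 fell by 1.09 in CBDL (SE 0.12, adjusted p = 0.000207). Its relative Slc47a2 was not called, at 5.43, 4.96 and 5.51 in norUDCA-fed CBDL, 5.43, 5.36 and 5.31 in CBDL and 5.62, 6.0 and 5.37 in sham (difference -0.30, 95% interval -0.70 to 0.11, for CBDL minus sham).

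Slc22a4 encodes OCTN1, the ergothioneine carrier. It stood at 9.05, 9.05 and 9.31 in norUDCA-fed CBDL, at 8.23, 8.16 and 8.63 in CBDL and at 9.60, 10.19 and 9.71 in sham, and fell by 1.49 (adjusted p = 0.000325) in CBDL. Slc22a5 encodes OCTN2, which recovers carnitine from the filtrate. It read 9.46 on each norUDCA-fed array, against 8.75, 8.94 and 9.33 in CBDL and 10.09, 9.82 and 9.81 in sham, and fell by 0.90 (adjusted p = 0.00189) in CBDL. Identical deposited values on arrays of a group occurred for 11 members in norUDCA-fed CBDL, 5 in CBDL and 3 in sham. These were 15.1%, 6.8% and 4.1% of members, against 14.2%, 9.6% and 7.8% of all genes. The SD of 0 for Slc22a5 is therefore not a measure of its spread. Slc22a21, the mouse carnitine carrier OCTN3, differed by 0.59 and was not called (adjusted p = 0.0788).

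Slc22a13 encodes OAT10, known in human as a nicotinate and urate exchanger. It stood at 9.03, 9.21 and 9.04 in norUDCA-fed CBDL, at 7.71, 7.35 and 8.21 in CBDL and at 9.72, 9.71 and 9.45 in sham, and fell by 1.87 in CBDL (SE 0.19, adjusted p = 0.000133). Slc22a18, an imprinted gene for a carrier of uncertain substrate, stood at 9.91, 10.23 and 9.89 in norUDCA-fed CBDL, at 8.83, 8.54 and 9.36 in CBDL and at 10.69, 10.84 and 10.68 in sham. It fell by 1.83 (SE 0.19, adjusted p = 0.000158). In both genes the 3 groups did not overlap. Slc22a23, an orphan carrier, stood at 9.78, 10.24 and 10.01 in norUDCA-fed CBDL, at 9.28, 9.13 and 9.45 in CBDL and at 10.27, 10.32 and 9.89 in sham, and fell by 0.88 (adjusted p = 0.00303) in CBDL. Slc22a17, which encodes a receptor for lipocalin-2, fell by 0.62 (adjusted p = 0.00488).

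Slc22a15, described in human as a carrier of zwitterions such as ergothioneine, moved the other way. It stood at 6.96, 6.49 and 7.0 in norUDCA-fed CBDL, at 7.47, 7.56 and 7.51 in CBDL and at 6.42, 6.76 and 6.23 in sham. It rose by 1.04 in CBDL (SE 0.17, adjusted p = 0.00153), 2.06-fold, and was the only Slc22a member to rise. Of the members not called, Slc22a13b, Slc22a14, Slc22a16, Slc22a20 and Slc22a27 differed by -0.44 to -0.15.

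**Figure D2:**
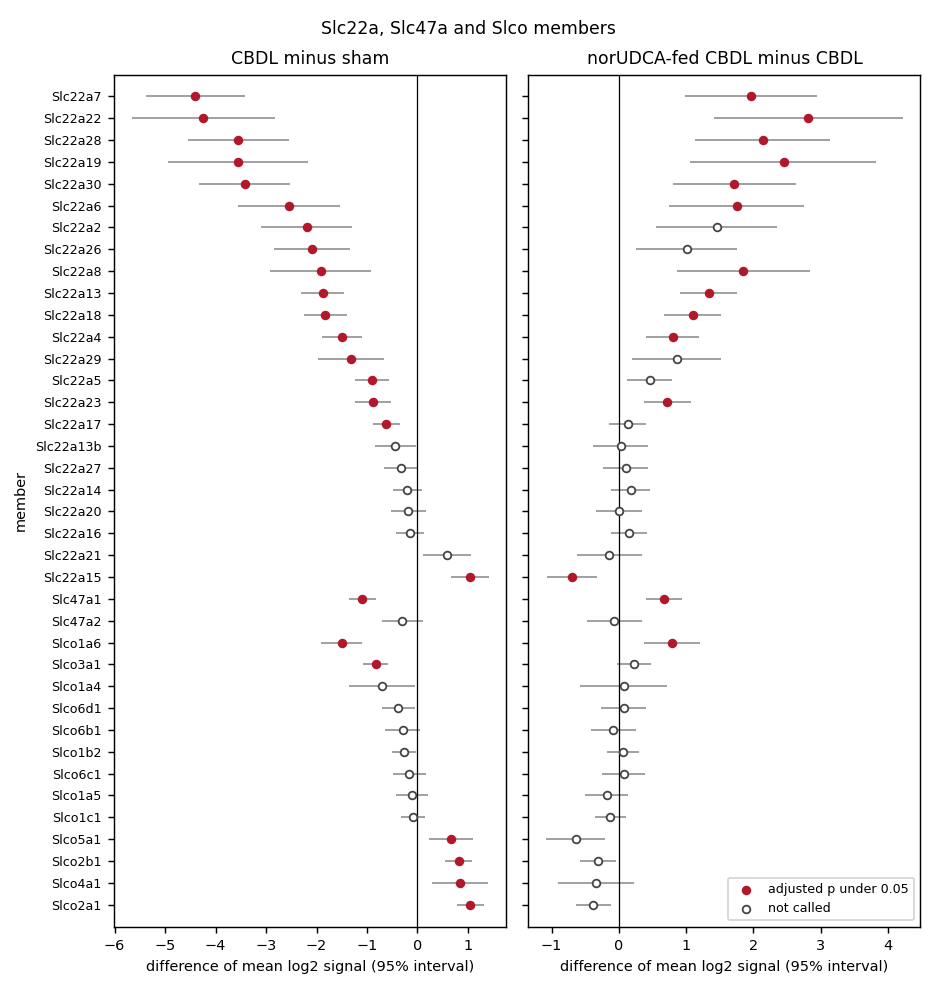
Differences of mean log2 signal with 95% intervals from the limma fit for the 38 Slc22a, Slc47a and Slco members, for CBDL minus sham on the left and norUDCA-fed CBDL minus CBDL on the right; filled points were called. On the left, 19 filled points lie below 0 and 5 above; on the right, 13 lie above 0 and Slc22a15 below. Both panels use the same CBDL arrays.

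Of 13 Slco members, 2 fell (15.4%, against 11.5% of all genes) and 4 rose (30.8%, against 10.3%). Slco1a6, a renal OATP of the mouse, stood at 9.80, 10.24 and 9.78 in norUDCA-fed CBDL, at 9.02, 9.15 and 9.27 in CBDL and at 10.32, 10.61 and 11.01 in sham. It fell by 1.5 in CBDL (SE 0.18, adjusted p = 0.000383). Slco3a1, a widely expressed OATP, stood at 9.18, 9.24 and 9.24 in norUDCA-fed CBDL, at 8.90, 8.94 and 9.12 in CBDL and at 9.66, 9.99 and 9.82 in sham, and fell by 0.83 (adjusted p = 0.000581). Slco2a1 encodes the prostaglandin transporter PGT, which clears prostaglandins from the extracellular space. It stood at 10.21, 10.19 and 10.50 in norUDCA-fed CBDL, at 10.77, 10.71 and 10.55 in CBDL and at 9.64, 9.72 and 9.52 in sham, with no overlap between the groups. Slco2a1 rose by 1.05 in CBDL (SE 0.12, adjusted p = 0.000211).

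Slco2b1, an OATP of many tissues, rose by 0.82 (SE 0.12, adjusted p = 0.00111). Slco4a1, a thyroid hormone carrier, rose by 0.84 (adjusted p = 0.0381) and Slco5a1, an orphan, by 0.67 (adjusted p = 0.0353). For Slco5a1 the CBDL and sham arrays were not fully apart, with CBDL_170 and sham_160 both at 5.04. Its sham mean of 4.86 and norUDCA-fed CBDL mean of 4.89 lay under 5.2. Slco4a1 lost its call without CBDL_164, CBDL_165, CBDL_170, sham_160 or any 1 norUDCA-fed array (adjusted p up to 0.118), and its difference was 0.51 without sham_160. The call of Slco4a1 also ended with variances that are not moderated (adjusted p = 0.121) and with only the 6 arrays compared (adjusted p = 0.0907). Slco5a1 lost its call without CBDL_164, CBDL_165, sham_158, sham_159 or norUDCA_CBDL_179 (adjusted p up to 0.124). Its call also ended with variances that are not moderated (adjusted p = 0.105) and with only the 6 arrays compared (adjusted p = 0.0784). Without CBDL_165 and sham_159 together its adjusted p was 0.205. The hepatocyte carrier Slco1b2, the thyroid hormone carrier Slco1c1, Slco1a5 and the testis genes Slco6b1, Slco6c1 and Slco6d1 had every group mean under 5.2 and were not called.

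Of 35 ABC members, 5 fell and 5 rose (14.3% each), near the 11.5% and 10.3% of all genes. Abca1 encodes the pump that loads cholesterol and phospholipid onto lipid-free apolipoprotein A-I. It stood at 9.85, 8.42 and 9.80 in norUDCA-fed CBDL, at 10.35, 10.40 and 9.83 in CBDL and at 8.93, 8.60 and 8.07 in sham. CBDL arrays lay above all sham arrays, and among norUDCA-fed arrays only norUDCA_CBDL_175 lay within the sham range. Abca1 rose by 1.66 in CBDL (SE 0.37, adjusted p = 0.00953), 3.16-fold. Its call ended with variances that are not moderated (adjusted p = 0.0591) and without CBDL_165 and sham_159 together (adjusted p = 0.0814). Abcg1, which passes cholesterol to mature high-density lipoprotein, stood at 7.61, 7.46 and 7.65 in norUDCA-fed CBDL, at 8.31, 8.19 and 7.98 in CBDL and at 6.68, 7.80 and 6.68 in sham. It rose by 1.11 (SE 0.26, adjusted p = 0.0132), and its call ended without sham_158, sham_160 or CBDL_164 (adjusted p up to 0.052). The call of Abcg1 also ended with variances that are not moderated (adjusted p = 0.0659).

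Abcc1 encodes MRP1, a basolateral exporter of glutathione conjugates. It stood at 8.24, 8.06 and 8.32 in norUDCA-fed CBDL, at 8.57, 8.58 and 8.48 in CBDL and at 7.95, 7.97 and 7.99 in sham, and rose by 0.57 in CBDL (SE 0.10, adjusted p = 0.00215). The 3 groups did not overlap. Abca6 and Abca9, neighbouring relatives of uncertain substrate, rose by 0.79 (adjusted p = 0.0179) and 0.67 (adjusted p = 0.00751). Every sham array of Abca6 lay under 5.2 (mean 4.93), so the size of its rise is uncertain. The call of Abca6 ended without sham_158, sham_160 or CBDL_165 (adjusted p up to 0.0629). It also ended with variances that are not moderated (adjusted p = 0.0699).

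Among ABC members that fell, Abca13, a very large protein of little-known function in kidney, stood at 9.84, 9.56 and 9.59 in norUDCA-fed CBDL, at 8.59, 7.71 and 8.84 in CBDL and at 9.79, 9.83 and 9.57 in sham. The CBDL arrays lay below both other groups, which overlapped, and Abca13 fell by 1.35 (SE 0.25, adjusted p = 0.00326). Abca3, known for loading surfactant lipid into lamellar bodies of the lung, stood at 10.75, 11.11 and 10.96 in norUDCA-fed CBDL, at 10.22, 10.17 and 10.55 in CBDL and at 11.11, 11.00 and 11.12 in sham. It fell by 0.76 (SE 0.13, adjusted p = 0.00242). Abcc6, needed for cellular ATP release and mutated in pseudoxanthoma elasticum in human, stood at 7.09, 6.81 and 7.14 in norUDCA-fed CBDL, at 6.51, 6.42 and 6.66 in CBDL and at 7.31, 7.11 and 7.09 in sham. It fell by 0.64 (SE 0.12, adjusted p = 0.00419). Abcb6, a porphyrin transporter, fell by 0.79 (adjusted p = 0.00184) and Abcb8, a mitochondrial inner membrane protein, by 0.56 (adjusted p = 0.00906). The call of Abcb8 ended without CBDL_165 and sham_159 together (adjusted p = 0.0612).

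**Figure D3:**
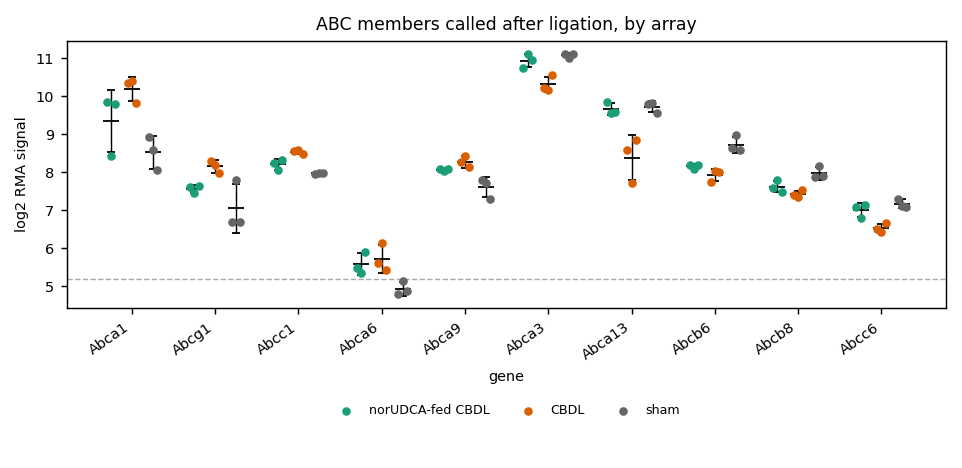
Log2 signal of the 10 ABC members called in CBDL minus sham, with 3 arrays per group as points and the group mean with its SD as bars; the dashed line marks 5.2. CBDL points lie above all sham points for Abca1, Abcg1, Abcc1, Abca6 and Abca9 and below them for Abca3, Abca13, Abcb6, Abcb8 and Abcc6.

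The canalicular pumps of the hepatocyte stayed dim. Abcb11, the bile salt export pump, stood at 3.63, 3.61 and 4.03 in norUDCA-fed CBDL, at 3.61, 3.61 and 3.50 in CBDL and at 3.61, 4.33 and 3.61 in sham. Abcb4, the phosphatidylcholine flippase of bile, stood at 4.93, 4.87 and 4.61 in norUDCA-fed CBDL, at 4.48, 4.96 and 4.87 in CBDL and at 5.07, 5.11 and 4.40 in sham. The biliary sterol pumps Abcg5 and Abcg8 had group means between 4.74 and 5.09. None of these 4 genes was called in any comparison, and the 95% interval of CBDL minus sham ran from -0.71 to 0.16 for Abcb11 and from -0.54 to 0.37 for Abcb4. The mitochondrial haem-pathway protein Abcb10 (-0.28, adjusted p = 0.163), the cyclic nucleotide exporter Abcc5 (0.26, adjusted p = 0.0857) and the potassium channel subunit Abcc9 (-0.50, adjusted p = 0.0785) were not called.

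**Figure D4:**
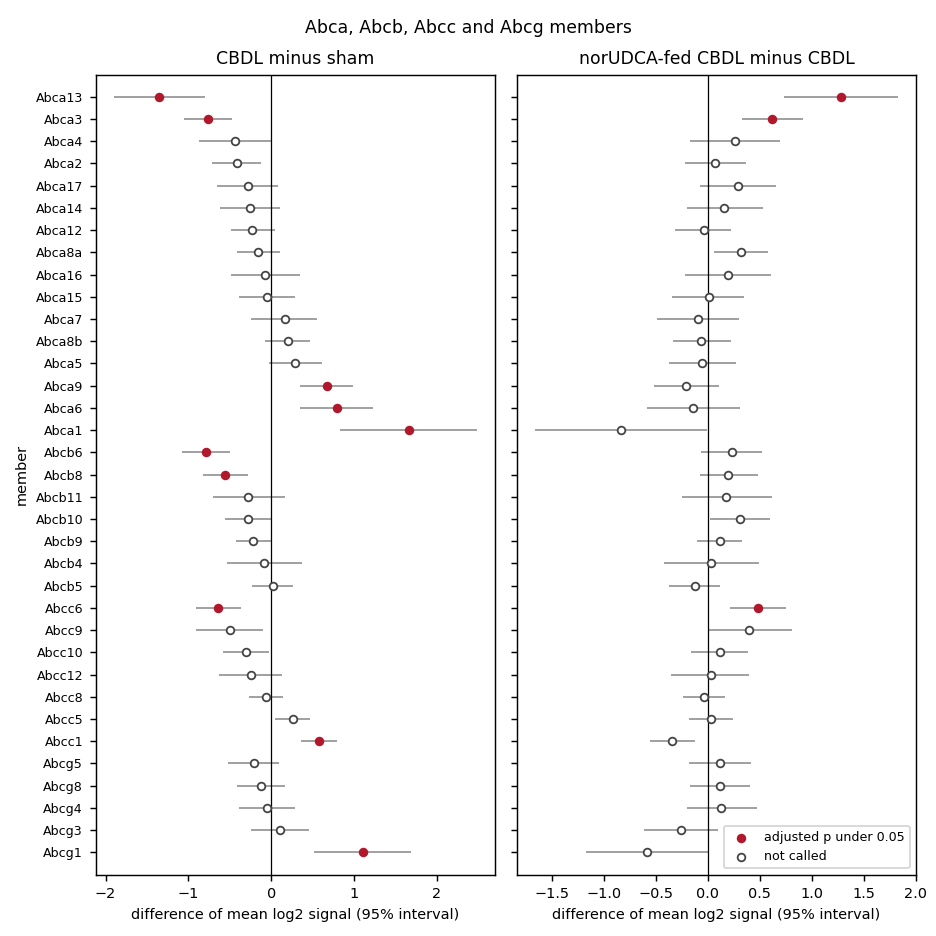
Differences of mean log2 signal with 95% intervals for the 35 ABC members, for CBDL minus sham on the left and norUDCA-fed CBDL minus CBDL on the right; filled points were called. On the left, 5 filled points lie on each side of 0; on the right, Abca13, Abca3 and Abcc6 are filled, all above 0. Both panels use the same CBDL arrays.

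The 24 members that fell differed among CBDL arrays in a recurring order. CBDL_165 was the lowest of its group for 17 of them and CBDL_170 the highest for 22. Their median SD was 0.36 in CBDL, against 0.15 in sham, and over all genes it was 0.15 in both groups. Markers of the proximal tubule moved with them: all 15 measured markers fell in CBDL (median -1.20), and CBDL_165 was lowest for 13 and CBDL_170 highest for 14. Their summed linear signal was 49547 to 55249 in norUDCA-fed CBDL, 19449 to 36692 in CBDL and 63126 to 66172 in sham. Other nephron markers fell too, 3 of 7 for the collecting duct (median -0.50) and 3 of 6 for the thick limb and distal tubule (median -0.33). In whole kidney RNA, fewer tubule cells and less of a transcript per cell cannot be told apart, and the part of these markers in the falls was not tested.

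Markers of some other cell types moved with the members that rose, and those of others did not. In CBDL, 0 of 6 endothelial markers rose and 1 fell, and 0 of 4 podocyte markers rose and 1 fell. Likewise 0 of 6 lymphocyte markers rose and 1 fell, and 0 of 6 adrenal cortex markers rose or fell. All 11 macrophage and myeloid markers rose in CBDL, with a summed linear signal of 3545 to 3803 in norUDCA-fed CBDL, 5881 to 10950 in CBDL and 1801 to 2517 in sham. Of 7 markers of pericytes, smooth muscle and fibroblasts, 6 rose, with sums of 6435 to 6786 in norUDCA-fed CBDL, 9149 to 10701 in CBDL and 3587 to 4995 in sham. Of 6 adipocyte markers, 4 rose and 0 fell (median 1.74), with sums of 1197 to 2886 in norUDCA-fed CBDL, 1797 to 4921 in CBDL and 1064 to 1399 in sham. CBDL_170 was the lowest CBDL array for 8 of the 10 members that rose and for 10 of the 11 macrophage markers. The pericyte, smooth muscle and fibroblast list and the adipocyte list went in another order. CBDL_165 was the lowest CBDL array for 5 of the 7 pericyte, smooth muscle and fibroblast markers and CBDL_170 for 2. Each of the 6 adipocyte markers was also lowest on CBDL_165 among CBDL arrays. The part of these cells in the rises of Abca1, Abcg1, Slco2b1 and the others was not tested.

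**Figure D5:**
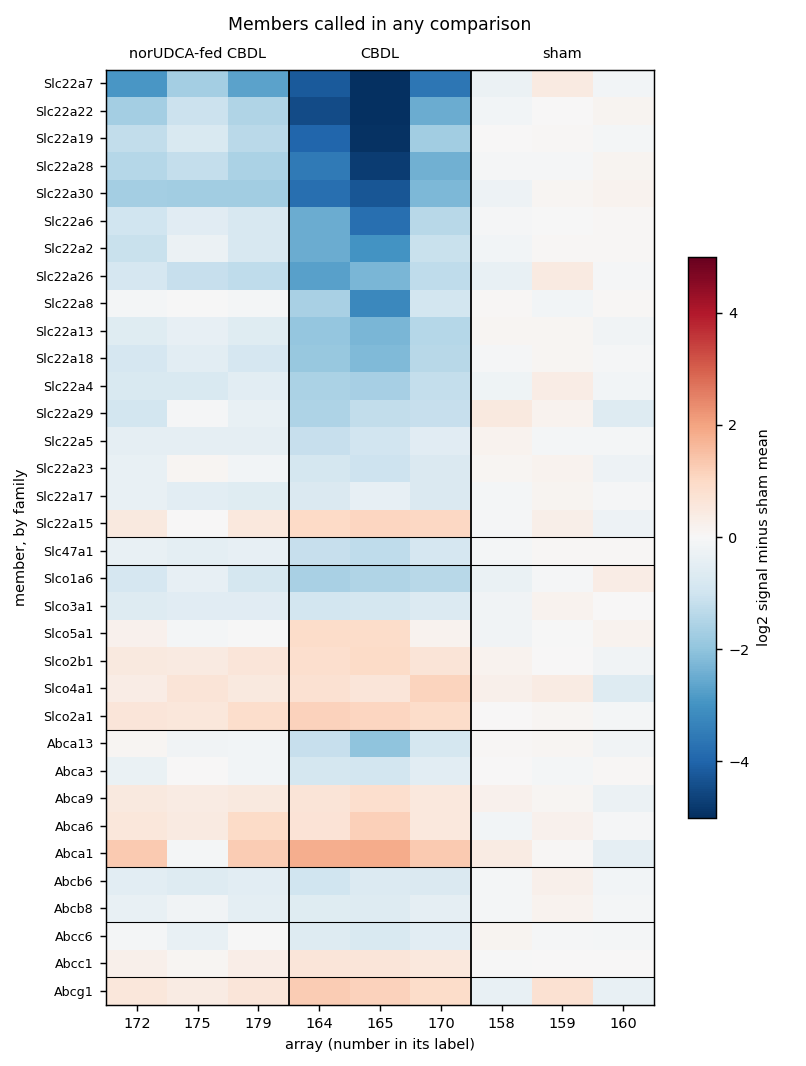
Log2 signal minus the sham mean on each of the 9 arrays, for the 34 members called in at least 1 comparison, by family. Blue in the CBDL columns marks the members that fell; CBDL_165 was the lowest CBDL array for 17 of those 24 and CBDL_170 the highest for 22, and the norUDCA-fed columns are paler for most of them.

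The comparison of norUDCA-fed CBDL with CBDL asks what feeding of the bile acid before ligation changes. Of the members, 16 were higher and 1 was lower in norUDCA-fed CBDL, and 56 were not called. The higher ones were 11 Slc22a carriers, Slc47a1, Slco1a6, Abca3, Abca13 and Abcc6. The exception was Slc22a15, lower by 0.70 (SE 0.17, adjusted p = 0.0368). Calls covered 23.3% of members, against 6.80% of all genes, with 21.9% against 3.61% for increases and 1.37% against 3.20% for decreases. The median difference was 0.12 over the members and 0 to 2 decimals over all genes. The norUDCA-fed and CBDL arrays did not overlap for 29 members (39.7%, against 24.2% of all genes).

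Calls with a change of at least 2-fold numbered 10 higher and 0 lower (13.7%, against 1.80% of all genes), each an anion carrier, an orphan or a large ABC protein. Slc22a22 was higher by 2.81 (SE 0.63, adjusted p = 0.0289), Slc22a19 by 2.45 (adjusted p = 0.0452), Slc22a28 by 2.14 (adjusted p = 0.0227), Slc22a7 by 1.96 (adjusted p = 0.0286) and Slc22a8 by 1.85 (adjusted p = 0.0375). Slc22a6 was higher by 1.76 (SE 0.45, adjusted p = 0.0474), Slc22a30 by 1.72 (adjusted p = 0.0354), Slc22a13 by 1.34 (SE 0.19, adjusted p = 0.00815), Abca13 by 1.28 (adjusted p = 0.0167) and Slc22a18 by 1.10 (adjusted p = 0.0129). Every norUDCA-fed array lay above every CBDL array for these 10 genes. For Slc22a30 both groups lay wholly below 5.2, so its difference is between signals that may not stand above background.

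Smaller differences passed for Slc22a4 at 0.80 (adjusted p = 0.0282), Slco1a6 at 0.79 (adjusted p = 0.0344), Slc22a23 at 0.72 (adjusted p = 0.0259) and Slc47a1 at 0.67 (SE 0.12, adjusted p = 0.014). Abca3 at 0.62 (adjusted p = 0.0232) and Abcc6 at 0.48 (adjusted p = 0.0445) passed as well. The cation carrier Slc22a2 differed by 1.46 and was not called (adjusted p = 0.0623). Among members that rose after ligation, only Slc22a15 was called lower. Abca1 differed by -0.83 (95% interval -1.66 to -0.01, adjusted p = 0.253), Abcg1 by -0.58 (adjusted p = 0.262), Slco2a1 by -0.38 (adjusted p = 0.0908) and Abcc1 by -0.34 (adjusted p = 0.0712).

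The adjusted p of these 17 calls lay between 0.00815 and 0.0474. Slc22a13 alone kept its call whichever array was left out. Without CBDL_164, 1 member was higher and 0 lower, without CBDL_165 6 and 0, without norUDCA_CBDL_172 4 and 0, without norUDCA_CBDL_175 1 and 0, and without norUDCA_CBDL_179 2 and 0. Over all genes, 1509 were called with all arrays, and 361, 695, 504, 278 and 571 with these arrays left out in the same order. Leaving out CBDL_170 gave 20 higher and 1 lower, and leaving out a sham array 11 higher and 0 (sham_158), 2 (sham_159) or 1 (sham_160) lower. Calls over all genes then numbered 2043 without CBDL_170, and 1116, 1568 and 1236 without those sham arrays. Without CBDL_165 the differences of Slc22a6 and Slc22a8 were 1.15 and 1.21. Without CBDL_165 and sham_159 together, 7 were higher and 0 lower. With variances that are not moderated, 0 members were called by the ordinary linear model, where 28 had an unadjusted p under 0.05 in limma. Proximal tubule markers moved with these members too, 11 of 15 being higher and 0 lower in norUDCA-fed CBDL (median 1.04), and 9 of 11 macrophage markers were lower; their part was not tested.

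Against sham, the norUDCA-fed ligated kidney differed in 4 members, and 69 were not called. Slc22a7 was lower by 2.44 (SE 0.44, adjusted p = 0.0188), 5.41-fold. Slco3a1 was lower by 0.60 (adjusted p = 0.0204) and Abcb6 by 0.56 (adjusted p = 0.0497), and Slco2a1 was higher by 0.67 (adjusted p = 0.0153). Calls covered 5.48% of members, against 3.18% of all genes, with 4.11% against 1.37% for decreases and 1.37% against 1.82% for increases. The groups did not overlap for 29 members (39.7%, against 22.5% of all genes), of which 22 were lower in norUDCA-fed CBDL and 7 higher. Over all genes, 4988 did not overlap, of which 3001 were lower and 1987 higher. Slc22a30 (-1.71, adjusted p = 0.056), Slc22a22 (-1.43, adjusted p = 0.299) and Slc22a28 (-1.41, adjusted p = 0.146) were not called, and Slc22a8 differed by -0.07 (95% interval -1.07 to 0.92). Each of the 4 lost its call without at least 1 of the arrays, and Abcb6 lost it whichever array was left out (adjusted p 0.0524 to 0.16). The lower calls numbered 0 without sham_159, norUDCA_CBDL_172 or norUDCA_CBDL_179, 1 without sham_160 or norUDCA_CBDL_175, 6 without CBDL_165 and 8 without CBDL_170. The higher calls numbered 0 without sham_160, norUDCA_CBDL_172 or norUDCA_CBDL_179 and 2 without sham_159 or norUDCA_CBDL_175.

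Genes that work with these transporters were taken from lists chosen with earlier results of these data known. Over all genes, 11.5% fell and 10.3% rose in CBDL against sham, and 3.61% were higher and 3.20% lower in norUDCA-fed CBDL against CBDL. Of 14 measured regulators, 6 fell and 3 rose in CBDL. Hnf4a, a nuclear receptor that drives proximal tubule genes, fell by 0.68 (adjusted p = 0.00144), Rxra, the partner of many nuclear receptors, by 0.64 and Mlxipl, a glucose-responsive factor, by 0.79. Ahr, the aryl hydrocarbon receptor, rose by 1.09 (adjusted p = 0.000482). In norUDCA-fed CBDL against CBDL, 1 of the 14 regulators was higher, 1 was lower and 12 were not called. Hnf4a was higher by 0.54 (adjusted p = 0.0194) and Ahr lower by 0.79 (adjusted p = 0.0134). Rxra (adjusted p = 0.0577) and Mlxipl (adjusted p = 0.077) were not called there. Of 9 measured scaffold and gradient genes, 4 fell and 0 rose in CBDL, and 4 were higher and 0 lower in norUDCA-fed CBDL against CBDL. Slc13a3 encodes the sodium-dicarboxylate carrier NaDC3, which supplies the dicarboxylates that OAT1 and OAT3 exchange. It stood at 11.98, 12.03 and 11.96 in norUDCA-fed CBDL, at 10.93, 10.41 and 11.35 in CBDL and at 11.97, 12.02 and 12.07 in sham, and fell by 1.13 in CBDL (SE 0.19, adjusted p = 0.00235). The sulfate and anion exchanger gene Slc26a1 fell by 2.14 (adjusted p = 0.000454).

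Of 12 measured targets of the sterol receptor LXR and partners in lipid efflux, 4 rose and 2 fell in CBDL, where 10.3% of all genes rose and 11.5% fell. Apoe, an acceptor of cholesterol released by Abca1 and Abcg1, rose by 2.07 (SE 0.14, adjusted p = 2.98e-05), Pltp, a phospholipid transfer protein, by 1.18 and Scarb1, a lipoprotein receptor, by 0.70. Nr1h3, which encodes LXR alpha, fell by 0.74 (adjusted p = 0.00738), and Cyp27a1, a sterol hydroxylase, by 0.65. Of 10 measured partners of mitochondrial and peptide ABC proteins, 3 fell and 0 rose. Iscu, the scaffold for iron-sulfur clusters, fell by 0.70, Fech, which inserts iron into haem, by 0.66 and Isca1 by 0.53, in a list whose median difference was -0.06, that of all genes. Of 7 measured genes of the ABC families D, E and F, Abcd2, a peroxisomal fatty acid transporter, rose by 2.02 (adjusted p = 0.00103), and its relatives Abcd3 and Abcd4 fell by 0.69 and 0.84. The sham mean of Abcd2, 5.16, lay under 5.2, so the size of its rise is uncertain. Within CBDL, Abcd2 was lowest on CBDL_165 (6.72), as the adipocyte markers were, and the part of adipocytes in its rise was not tested. In norUDCA-fed CBDL against CBDL, Abcd2 was lower by 1.52 (adjusted p = 0.0181) and Abcd4 higher by 0.48 (adjusted p = 0.0167). Abcd3 was not called there (adjusted p = 0.0562).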

How the data were processed

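Each deposited value is a log2 signal of a transcript cluster, made by the authors with RMA, a robust multi-array averaging method, using Partek 6.6 (both per the submitters' processing notes). Per the labels' protocols, TRIzol was used for extraction and a whole-transcript kit for labelling. Genome build, probe filters and any batch step are not given in the sources used here. Of 41345 rows, 23521 carry 1 gene symbol in the platform annotation, 1814 several and 16010 none. Where a gene had several single-symbol rows (1 member, Slco2b1), the row with the highest mean was taken, which left 22180 genes. All 73 members were found in the RefSeq gene table. The number of arrays, 3 a group, limits the precision.

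Groups were compared with limma 3.58.1 in R 4.3.3, fitting a mean for each group over all 9 arrays, with variances moderated across genes (6 residual and 3.77 prior degrees of freedom). p-values were two-sided and adjusted by Benjamini-Hochberg over all 22180 genes, and intervals are 95%. The fit was tested on simulated data. Values on every array are given for members called with a difference of at least 1, for members called in norUDCA-fed CBDL against CBDL and for a short fixed list of well-known transporters. The members, gene lists and markers were chosen with earlier results of these data known. Genes of the lists are named from the 4 of lowest p per comparison and, for a few, after their values were seen. Alternatives were an intensity trend, weighting of arrays, no moderation of the variances, a fit to the 6 arrays compared alone, leaving out genes with a mean below 5.2, the mean of a gene's rows, quantile normalization and leaving out each array. Leaving out sham_159 and CBDL_165 together was added after seeing the data. Some results are not reported here.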

Additional observations from a re-analysis of the deposited data

How the results depend on the processing

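Every called difference kept its direction under each alternative in which its gene was tested. In CBDL against sham, the members called lower numbered 22 to 26 under all alternatives (24 to 26 with 1 array left out), and those called higher 6 to 11 (7 to 9 with 1 array left out), the lowest, 6, with variances that are not moderated. In norUDCA-fed CBDL against CBDL, higher calls numbered 1 to 20 with 1 array left out, 6 with only the 6 arrays compared, 7 without sham_159 and CBDL_165 together and 0 with variances that are not moderated, where 25 of all 22180 genes were called. Lower calls numbered 0 to 2 with 1 array left out, 3 with an intensity trend, 2 without genes with a mean below 5.2 or with quantile normalization, and 0 with variances not moderated or without both arrays. In norUDCA-fed CBDL against sham, higher calls numbered 0 to 2 with 1 array left out, 2 with an intensity trend, without genes with a mean below 5.2, with quantile normalization or without both arrays, 6 with array weights and 0 with variances not moderated. Lower calls there numbered 0 to 8 with 1 array left out, 7 with an intensity trend or without genes with a mean below 5.2, 10 with array weights, 9 with only the 6 arrays compared and 0 with variances not moderated. Calls over all genes moved too in norUDCA-fed CBDL against sham. They numbered 706 in the main fit, 156 to 822 with 1 array left out, 1638 with array weights and 169 with variances not moderated. Fewer arrays and unmoderated variances leave fewer degrees of freedom; the cause of the other shifts was not tested. No paired analysis was possible because the groups share no replicate numbers. Signal below 5.2 limits 22 members in every group, and others, such as Slc22a30 and Slco5a1, in some groups.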
